A study of Mus musculus with 4 samples.

Results

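These data describe 451 stretches of open chromatin in RAW264.7 cells, a mouse macrophage line. They lie more than 3 kb from the gene starts used here and lost accessibility when cholesterol was taken out of the cell membrane. They carry the short DNA word that the transcription factor PU.1 recognises. Accessibility was measured by ATAC-seq, in which the Tn5 transposase cuts open chromatin, so that more reads at a site stand for a more open site. The control group was 2 samples of cells that did not receive the drug. The other group was 2 samples treated with 5 mM methyl-β-cyclodextrin (MCD), a ring of sugars that draws cholesterol out of membranes, for 1 hr in 1 mg/ml bovine serum albumin (BSA). Both groups were grown in DMEM with fetal calf serum. The labels give the control treatment as none. The study's ATAC-seq methods likewise call the control cells untreated. Its general culture methods describe water as the control agent and BSA in the treatment medium of both groups, at another concentration than the labels. The labels do not say whether the 2 samples of a group were separate cultures. The labels name no genetic change in either group, and all cells belong to 1 transformed line, so they stand for that line and not for macrophages of an animal. The authors' deposited table lists 3812 intervals of 201 bp, each of which passed the authors' threshold for a difference between the groups, so no unchanged interval was analysed here. It gives 1 mean per condition and no value per sample. Every level below is therefore the authors' mean, without a spread between replicates and without a test, and the depth each sample reached is not in the table. The cell type was not checked against marker genes, because only accessibility at changed intervals was measured.

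An interval was called lost where the authors' mean was lower in MCD than in control. It was called distal where it lay more than 3 kb from every transcription start site (TSS) that GENCODE M21 gives for transcripts carrying an Entrez identifier. It was said to hold a PU box where its GRCm38 sequence contained GAGGAA on either strand. The 451 intervals chosen by these rules were 11.8% of all 3812, 44.1% of the 1022 lost intervals and 52.1% of the 866 distal lost intervals. Of all intervals 26.8% were lost, and of the 3166 distal intervals 27.4% were lost. Since all 451 were selected on the direction of their means, their being lower in MCD is no finding, and nothing is read from those shares about them.

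PU.1, encoded by Spi1, is an ETS-family factor that macrophages and other myeloid cells need to form. It binds purine-rich sites with a GGAA core, often far from promoters, where it helps to open chromatin and to mark the enhancers that other factors then use. Among these are C/EBP and RUNX factors, IRF4 and IRF8, which bind beside PU.1 on joint sites, and the signal-driven factors AP-1 and NF-κB. A box in the DNA is a match of letters, and no binding of PU.1 was measured here.

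The 4 distal lost PU box intervals with the largest fall are shown whole, with the box in capitals (GAGGAA, or TTCCTC where it lies on the minus strand). They are named after the gene with the nearest TSS. The box lay 84.5 bp from the middle of the interval at Cenpa, 4.5 bp at Lipa, 64.5 bp at Itga4 and 9.5 bp at Sgcz.
Cenpa interval, chr5:30676688-30676888, plus strand: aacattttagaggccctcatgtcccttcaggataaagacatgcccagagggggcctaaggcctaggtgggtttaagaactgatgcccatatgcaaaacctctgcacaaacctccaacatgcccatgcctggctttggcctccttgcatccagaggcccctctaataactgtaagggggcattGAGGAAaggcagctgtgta
Lipa interval, chr19:34490523-34490723, plus strand: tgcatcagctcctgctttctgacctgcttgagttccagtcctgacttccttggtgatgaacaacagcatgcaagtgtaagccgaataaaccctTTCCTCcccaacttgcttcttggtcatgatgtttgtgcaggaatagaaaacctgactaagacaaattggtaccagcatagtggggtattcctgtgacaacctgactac
Itga4 interval, chr2:79089970-79090170, plus strand: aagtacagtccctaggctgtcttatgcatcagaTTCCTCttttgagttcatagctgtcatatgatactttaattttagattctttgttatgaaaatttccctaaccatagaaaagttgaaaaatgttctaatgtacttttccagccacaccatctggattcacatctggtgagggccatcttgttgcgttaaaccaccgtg
Sgcz interval, chr8:37898356-37898556, plus strand: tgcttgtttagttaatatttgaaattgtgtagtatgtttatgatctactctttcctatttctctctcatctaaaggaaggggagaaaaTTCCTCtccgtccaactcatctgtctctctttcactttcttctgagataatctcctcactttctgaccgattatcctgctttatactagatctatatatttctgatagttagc

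At the other end of box number, 5 intervals held 4 boxes each. Those nearest to Idh2, which lies in an intron of Zfp710, and in an intron of Sgk1 are shown because their boxes lie on both strands.
Idh2 interval, chr7:80078927-80079127, plus strand: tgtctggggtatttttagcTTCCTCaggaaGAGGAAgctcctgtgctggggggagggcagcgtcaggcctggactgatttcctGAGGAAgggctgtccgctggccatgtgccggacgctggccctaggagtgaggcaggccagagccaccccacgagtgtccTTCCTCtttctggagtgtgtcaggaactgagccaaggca
Sgk1 interval, chr10:21889502-21889702, plus strand: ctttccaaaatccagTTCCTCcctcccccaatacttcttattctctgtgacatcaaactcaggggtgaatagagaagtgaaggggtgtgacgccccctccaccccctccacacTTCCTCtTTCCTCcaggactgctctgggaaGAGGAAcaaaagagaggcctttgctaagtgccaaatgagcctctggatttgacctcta

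PU.1 sites are known to extend beyond the 6 letters of the box. Each box was therefore scored for 6 letters beside it, read on the strand of the box: A at each of the 3 positions before it, then G, T and G after it. Of the 606 boxes, 12 had all 6 letters, and 10 of these are shown with the box in capitals, in order of the fall of their interval.
Pot1a, chr6:26764901-26764946, minus strand: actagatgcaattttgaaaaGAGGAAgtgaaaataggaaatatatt
Rbfox1, chr16:7544226-7544271, plus strand: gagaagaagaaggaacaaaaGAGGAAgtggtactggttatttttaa
Nrp1, chr8:128076403-128076448, plus strand: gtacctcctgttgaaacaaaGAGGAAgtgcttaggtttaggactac
Nlrc4, chr17:74440689-74440734, minus strand: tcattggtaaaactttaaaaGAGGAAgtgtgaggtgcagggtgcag
Filip1l, chr16:57396457-57396502, minus strand: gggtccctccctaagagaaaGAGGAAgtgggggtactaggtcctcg
Spidr, chr16:16099991-16100036, plus strand: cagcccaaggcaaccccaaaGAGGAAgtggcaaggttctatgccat
Sgk1, chr10:21889595-21889640, minus strand: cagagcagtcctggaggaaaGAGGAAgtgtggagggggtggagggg
Strap, chr6:137696984-137697029, minus strand: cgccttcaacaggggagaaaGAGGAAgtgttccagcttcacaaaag
Sox5, chr6:144818152-144818197, minus strand: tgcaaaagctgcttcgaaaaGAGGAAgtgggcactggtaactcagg
Lcp2, chr11:34031505-34031550, plus strand: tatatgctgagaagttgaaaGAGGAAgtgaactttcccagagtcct

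A further group of boxes overlapped a match to a joint PU.1-IRF site, written here as GGAANNGAA. Among these, 4 of the intervals with large falls, and the one in an intron of Tgfbr2, are shown with the joint site in capitals. The PU box is formed by the last 2 letters before the capitals and the first 4 capitals. The pattern does not ask for a further A after GAA. Of the sites shown, those at St8sia4 and Tgfbr2 have this A, and those at Sema5a, Jun and Slc16a12 do not.
Sema5a, chr15:32230204-32230236, plus strand: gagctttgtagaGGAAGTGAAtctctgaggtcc
Jun, chr4:95250387-95250419, plus strand: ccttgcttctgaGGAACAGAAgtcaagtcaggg
Slc16a12, chr19:34725529-34725561, minus strand: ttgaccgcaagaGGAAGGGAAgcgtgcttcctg
St8sia4, chr1:95493149-95493181, minus strand: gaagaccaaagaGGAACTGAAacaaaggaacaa
Tgfbr2, chr9:116145374-116145406, plus strand: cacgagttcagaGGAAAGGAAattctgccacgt

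The 451 distal lost intervals with a box were well open in control cells. The authors' mean had a median of 114 normalized reads in control, ranging from 26.8 to 1069 with quartiles of 78.3 and 158. In MCD the median was 57.4 normalized reads, with a range from 5.14 to 619 and quartiles of 35.4 and 90.6. The difference, MCD minus control on the log2 scale, had a median of -0.97, quartiles of -1.21 and -0.79, and a range from -2.38 to -0.44. It was -1 or lower at 208 of the 451 intervals (46.1%), while 12.5% of all 3812 intervals fell by at least 1. The rule used this contrast, so the share is a description. No interval was listed at 0 in either condition.

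**Figure D1:**
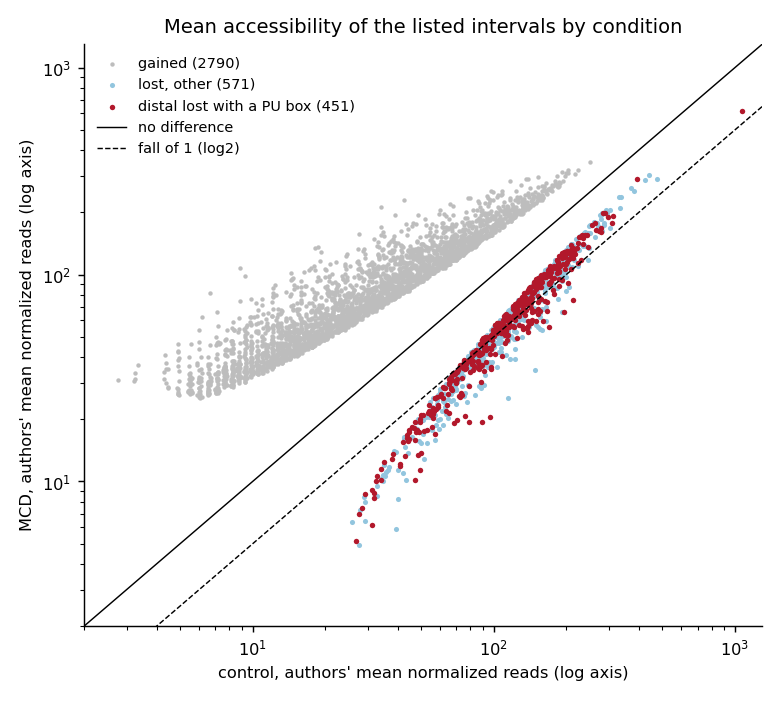
Each point is 1 of the 3812 listed intervals, with the authors' mean of normalized reads in control on the x axis and in MCD on the y axis, both logarithmic. The solid line marks equal means and the dashed line a fall of 1 on the log2 scale. The 451 distal lost intervals with a PU box (dark red) run from 26.8 to 1069 reads in control, and cover the same band as the other lost intervals.

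The 415 distal lost intervals without a PU box had a median of 108 normalized reads in control and 53.9 in MCD. Their median difference was -1.0, and 203 of them (48.9%) fell by at least 1. The 651 distal gained intervals that held a PU box came from a much lower start, with a median of 30.6 normalized reads in control and 80 in MCD, a median difference of 1.39. A control mean of at least 100 reads was found at 270 of the 451 lost intervals with a box (59.9%) and at 55 of the 651 gained ones (8.45%). The sets were chosen by which condition had the lower mean, which by itself favours higher control levels in lost intervals, so these levels are a description. No spread between samples was available.

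The size of the fall went with the control level. Ordered by control mean, the 113 least open intervals had medians of 57.8 reads in control and 22.5 in MCD, a median difference of -1.32. The next 113 had 96.5 and 48 reads (-1.0), the 113 after those 136 and 71.9 reads (-0.87), and the 112 most open 193 and 114 reads (-0.72). Across the 451 intervals, Pearson's r between the control level (log2) and the difference was 0.75 and Spearman's rho 0.77. These points share the 4 libraries, the control mean enters both axes, and a small difference at a low level could not pass the authors' threshold, so the relation is given as a description.

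PU boxes were more frequent among lost than among gained distal intervals. Of the 866 distal lost intervals 52.1% held a box, against 28.3% of the 2300 distal gained intervals. Put the other way, 451 of the 1102 distal intervals with a box were lost (40.9%), against 415 of the 2064 without one (20.1%). Near genes the share was alike: of the 156 lost intervals within 3 kb of a TSS, 82 held a box (52.6%). Both the box and the direction were part of the rule, and lost and gained intervals also differed in control level, so these shares are a description. Intervals are not replicates and no test was made of these shares.

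Boxes were also more often repeated. Of the 451 intervals, 324 held 1 box (71.8%), 104 held 2, 18 held 3 and 5 held 4. At least 2 boxes were found in 28.2% of them and in 15.2% of the distal gained intervals with a box. Intervals with more boxes were more open in control. The median was 110.2 reads with 1 box, 122 with 2, 145 with 3 and 173 with 4. Distal gained intervals also had higher medians with up to 3 boxes, at 28 reads with 1, 34.6 with 2 and 50.9 with 3. The 2 gained intervals with 4 boxes had a median of 16.5 reads. In the 451, the median differences with 1, 2, 3 and 4 boxes were -0.98, -0.94, -0.95 and -0.74. Across all 451, the number of boxes and the difference had r = 0.10 and rho = 0.08.

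The intervals with 3 or more boxes included a pair upstream of Jun, which encodes an AP-1 subunit. The interval 197988 bp from the Jun TSS (chr4:95250210-95250410) had 72.4 normalized reads in control and 25.5 in MCD, a difference of -1.50. The one 178293 bp from it (chr4:95230515-95230715) had 177 and 80.1 reads, a difference of -1.14. The intronic interval of Tgfbr2, the type II receptor of TGF-β, held 3 boxes and went from 197 to 106 reads (-0.90). All 18 intervals with 3 boxes had 53.1 to 266 reads in control and differences from -1.50 to -0.62, with the largest level nearest to Epc2 and the smallest nearest to Sec61b. The 5 intervals with 4 boxes, nearest to Mrpl3, Sgk1, Fam187b, Idh2 and Tal2, had 103 to 216 reads in control and differences from -0.88 to -0.67. The Sgk1 and Fam187b intervals were 51.2% and 62.7% repeat-masked.

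**Figure D2:**
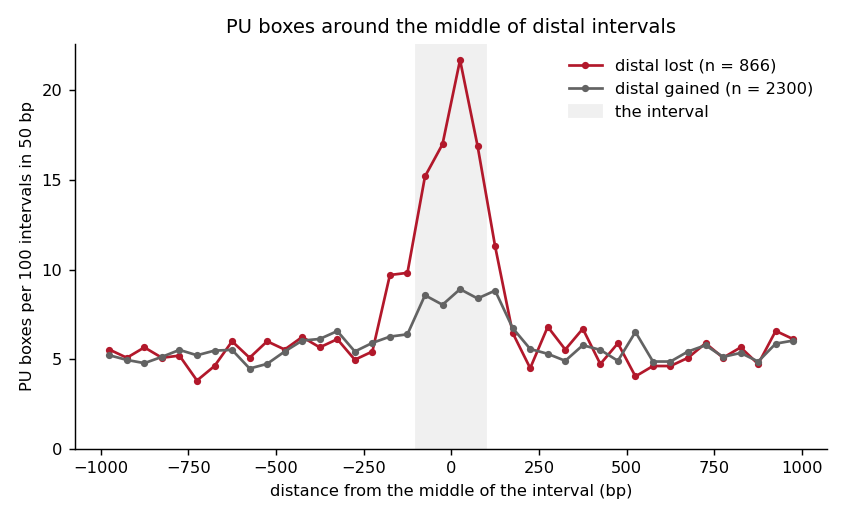
PU boxes on either strand per 100 intervals, in bins of 50 bp by distance from the middle of the interval, for the 866 distal lost (red) and 2300 distal gained (grey) intervals. The shaded band is the interval itself. The red line rises far above the grey one within the band and is still raised just outside it. There it stands at 9.82 boxes per 100 intervals from -150 to -100 bp and at 11.3 from 100 to 150 bp. The grey line stands at 6.39 and 8.83 in these bins. Both lines run about level beyond 200 bp.

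The boxes gathered at the middle of the lost intervals. Within 50 bp of the middle, the 866 distal lost intervals held 3.83 boxes per kb, and 1.05 per kb between 500 and 1000 bp away, a ratio of 3.67. In the 2300 distal gained intervals the values were 1.68 and 1.06 per kb, a ratio of 1.59. The flanking DNA of both sets thus held the box at nearly the same density. In the 451 lost intervals with a box, the nearest box lay a median of 37.5 bp from the middle, and 62.5% had one within 50 bp. Among the gained intervals with a box these values were 44.5 bp and 54.8%. Within 25 bp the shares were 33.0% and 29.2%. Distance of the box from the middle did not go with the size of the fall (r = -0.02, rho = -0.00, n = 451 intervals of the same libraries).

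The letters around the box differed too. On the strand of the box, the position just before it was A at 52.5% of the 606 boxes of lost intervals. It was A at 42.5% of the 771 boxes of distal gained intervals, and at 36.5% of 886 boxes in the DNA 500 to 990 bp from the middle of distal lost intervals. The position just after the box was G at 57.9%, 48.9% and 37.8%, in the same order, and the next was T at 43.2%, 31.0% and 21.4%. At the first of the 6 positions, A was found at 46.0%, 30.2% and 32.6%. The last position scored, G after the box, was alike in lost and gained intervals, with 33.3% and 34.5% against 28.9% in flanking DNA.

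Counted together, at least 5 of the 6 letters matched at 64 of the 606 boxes of lost intervals (10.6%), at 21 of 771 boxes of gained intervals (2.72%) and at 8 of 886 flanking boxes (0.903%). All 6 matched at 12, 1 and 0 boxes. Of the intervals with the 10 boxes shown above, the lowest in control was the one nearest to Pot1a, with 44.4 reads in control and 17.8 in MCD (-1.32). The highest was the one nearest to Strap, with 235 and 141 reads (-0.74). One lies in an intron of Nlrc4, which encodes an inflammasome sensor, and went from 100.1 to 52.4 reads (-0.93).

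A longer match did not go with a larger fall. The 288 intervals with a box followed by G had a median of 123 reads in control and a median difference of -0.92, and the other intervals had 103 reads and -1.04. The 60 intervals with GAGGAAGTG had 135 reads and -0.85, against 111 reads and -0.98 in the rest. Both longer forms thus stood in more open intervals, where falls on the log2 scale were smaller, as in the order by control level above. GAGGAAGTG was found in 13.3% of lost and 9.37% of gained distal intervals with a box, and in 3.75% of all intervals.

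**Figure D3:**
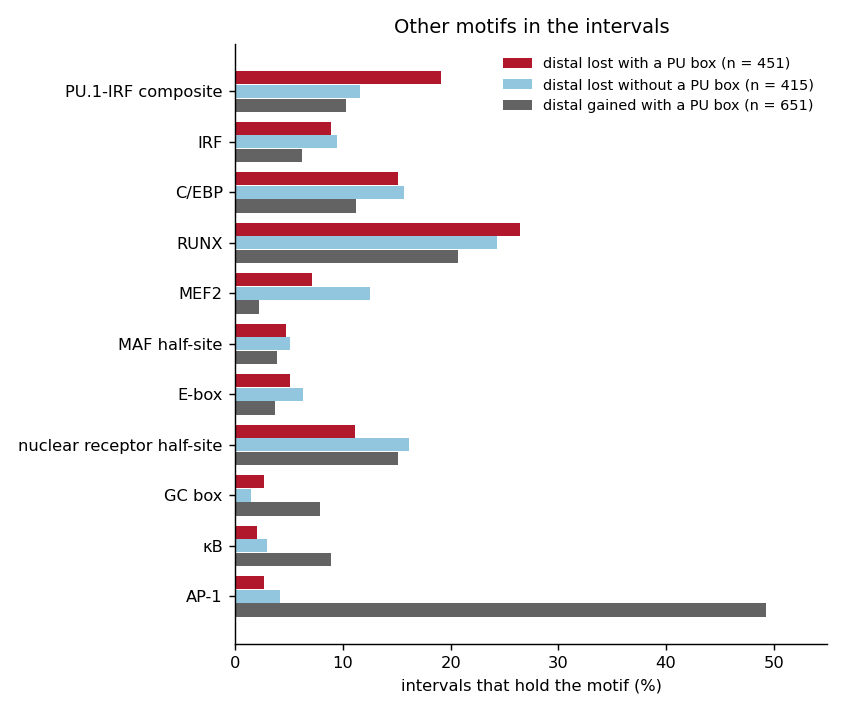
Share of intervals that hold each motif on either strand, in the 451 distal lost intervals with a PU box (red), 415 distal lost intervals without one (blue) and 651 distal gained intervals with one (grey). The AP-1 bars are 2.66%, 4.1% and 49.3%, the widest gap in the plot, and the PU.1-IRF composite is longest in the red set, at 19.1%.

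Other motifs set these intervals apart from gained intervals that held the same box. The AP-1 site TGANTCA, bound by Jun and Fos family factors, was present in 12 of the 451 lost intervals (2.66%), in 321 of the 651 gained intervals with a box (49.3%) and in 39.6% of all intervals. The κB site of NF-κB was present in 9 of the 451 (2.00%), in 58 of the 651 (8.91%) and in 7.03% of all. The GC box GGGCGG, a site of SP and KLF factors, was found in 2.66%, 7.83% and 7.79%. The cAMP response element TGACGTCA was found in none of the 451, in 1.54% of the gained intervals with a box and in 1.08% of all. No match says only that these letters were not in the 201 bp.

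Lost intervals with and without a PU box were alike in AP-1, κB, GC box, C/EBP, RUNX and IRF sites. They were less alike in MEF2 sites and nuclear receptor half-sites. Without a box, AP-1 sites were found in 4.1%, κB sites in 2.89% and GC boxes in 1.45%. The C/EBP site TTGCNNAA was found in 15.1% of the 451, in 15.7% of lost intervals without a box, in 11.2% of gained intervals with one and in 12.3% of all. The RUNX site TGTGGT was found in 26.4%, 24.3% and 20.7% of the first 3 of these sets. The IRF site GAAANNGAA was found in 8.87%, 9.4% and 6.14% of them and in 7.42% of all. The site of MEF2 factors was present in 7.10% of the 451 and 12.5% of the lost intervals without a box, against 2.15% of the gained intervals with one. The nuclear receptor half-site AGGTCA was found in 11.1% of the 451 and 16.1% of the lost intervals without a box. It was found in 15.1% of the gained intervals with one and in 14.6% of all. Each motif was searched on both strands.

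The PU.1-IRF composite was found in 86 of the 451 intervals (19.1%), in 11.6% of distal lost intervals without a box, in 10.3% of distal gained intervals with one and in 8.53% of all. The first 4 letters of the composite can be those of a PU box, so the rule raises its share wherever a box is required. The gained intervals with a box are therefore the like comparison for the 451. For lost intervals without a box it is the distal gained intervals without one, of which 4.91% held a composite. The higher share was thus found in both lost sets. At 39 intervals the PU box itself was part of the composite. Intervals with a composite had a median of 107 reads in control and a median difference of -0.98, and those without had 115 reads and -0.97. The composites shown above include the interval nearest to Slc16a12, with 213 reads in control and 75.7 in MCD (-1.49), and that nearest to Sema5a, with 32.5 and 10 reads (-1.70).

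By the place of their middle base, 239 of the 451 were intergenic (53.0%), 191 lay in introns (42.4%) and 21 in exons (4.66%). Distal gained intervals with a box were intergenic in 52.4%, intronic in 45.2% and exonic in 2.46%. The distance from the edge of the interval to the nearest TSS had a median of 24436 bp, against 19883 bp in the gained intervals with a box, and ran from 3017 to 1652755 bp. A TSS lay within 10 kb of 112 intervals (24.8%) and beyond 100 kb of 67 (14.9%), while 8.6% of the distal gained intervals with a box were beyond 100 kb. Distal lost intervals without a box had a median distance of 21407 bp, and 15.7% of them were beyond 100 kb, so this was shared by both lost sets. Across the 451, distance and difference had r = -0.15 and rho = -0.17. GC content had a median of 47.3% and repeat-masked sequence one of 11.4%, close to the 47.8% and 10.9% of the gained intervals with a box. The box lay in repeat-masked sequence alone in 22.4% of the 451.

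Lost intervals lay near each other. Another lost interval was found within 50 kb of 122 of the 451 (27.1%), another of the 451 within 50 kb of 67 (14.9%), and a gained interval within 50 kb of 77 (17.1%). The distal lost intervals without a box were alike in this. Of them, 33.3% had another lost interval, 15.7% one of the 451 and 14.2% a gained interval within 50 kb. Of the 651 distal gained intervals with a box, 5.99% had a lost interval and 47.9% another gained interval within 50 kb. Gained intervals are more numerous in the table, so these shares are not on 1 scale. By chromosome, the 451 intervals were 6.46% of the listed intervals of chromosome 11 and 20.9% of those of chromosome 18, and chromosome X held 3.

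The largest falls were at intervals of low or middle level. The interval nearest to Cenpa, which encodes the centromeric histone H3 variant, lay 4733 bp from its TSS, outside the gene (chr5:30676688-30676888), and went from 26.8 normalized reads in control to 5.14 in MCD, a difference of -2.38. The interval nearest to Lipa, the lysosomal acid lipase that frees cholesterol from its esters, had 31.2 and 6.17 reads (-2.34) and was repeat-masked over its whole length. The interval 165256 bp upstream of Itga4, the integrin α4 subunit, had 96.5 and 20.6 reads (-2.23). That in an intron of Sgcz, which encodes a sarcoglycan, had 89.4 and 19.3 reads (-2.21). The Itga4 and Sgcz intervals were thus open to a middle level in control, unlike those at Cenpa and Lipa.

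The next 6 were nearest to Tmem38b (47.2 to 10.2 reads, -2.21), Ubac2 (49.4 to 11.3, -2.12), Hpgd (78.7 to 19.4, -2.02), Spon1 (27.5 to 6.99, -1.98), Slc37a2 (28.4 to 7.42, -1.94) and Bach2 (31.9 to 8.34, -1.93). Hpgd encodes the enzyme that inactivates prostaglandins, and its interval lies in one of its introns with 2 boxes. Bach2, a transcriptional repressor of the bZIP family, had its interval 77774 bp upstream, and that interval was wholly repeat-masked.

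The highest control level belonged to an interval 15610 bp upstream of Gtpbp4, which encodes a nucleolar GTPase. It had 1069 reads in control and 619 in MCD (-0.79), far above the next. A box of this interval lies in a run of repeated AGG letters, and whether this bears on its level was not tested. The next levels were at Cttnbp2nl (392 to 289 reads, -0.44), Gm31371 (311 to 192, -0.70), Bcar3 (308 to 177, -0.80) and Plekho1 (297 to 189.6, -0.65). The letters around the Gm31371 box are nearly those around the box of the interval nearest to Gm7135. The Cttnbp2nl interval also had the smallest fall of all, followed by one nearest to Egr3 (283 to 198 reads, -0.51). Just across that limit, the smallest rises among distal intervals with a box were at Il10 (155 to 229 reads, 0.57) and Smox (141 to 212 reads, 0.58). At the 3 kb limit, an interval 3017 bp from the Mmp15 TSS was kept (74.2 to 35.3 reads, -1.07), and one 2983 bp from the Icos TSS was not (98.4 to 43.8 reads, -1.17).

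**Figure D4:**
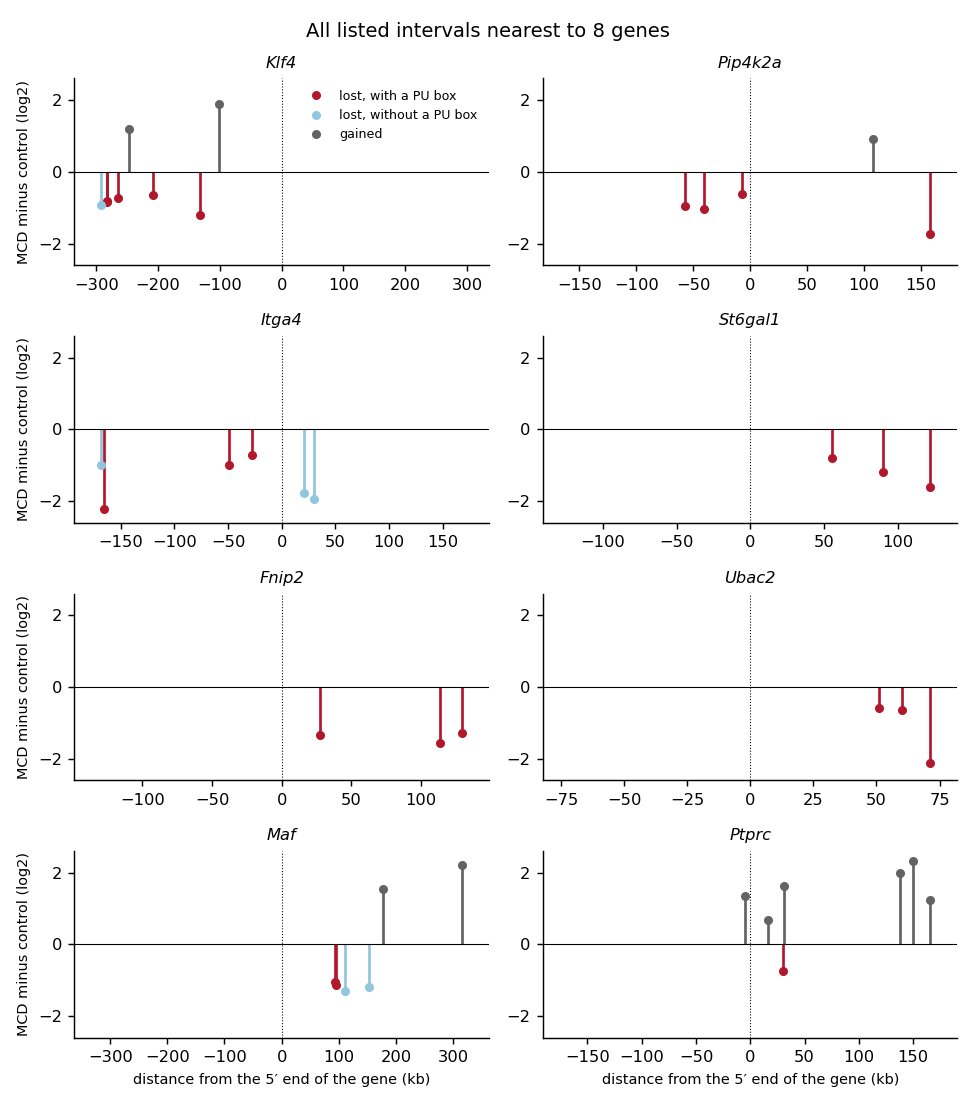
All listed intervals nearest to each of 8 genes, at their distance in kb from the 5′ end of the gene (negative values are upstream), with the difference MCD minus control on the log2 scale on the y axis. Red stems are distal lost intervals with a PU box, blue stems other lost intervals and grey stems gained intervals. Klf4 has 5 red stems, all upstream, and Ptprc has 1 red stem among 6 grey ones.

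The 451 intervals were nearest to 405 genes, of which 369 had 1, 29 had 2 and 7 had at least 3. Klf4, a zinc-finger factor of monocytes and macrophages, had 5, spread over 151248 bp and lying 132401 to 283448 bp upstream of its TSS. From the nearest to the farthest they had 53.7, 243, 209.8, 149 and 199.5 reads in control, and 23.3, 156, 126, 85.1 and 112 reads in MCD. The differences were -1.20, -0.64, -0.73, -0.81 and -0.84. Beside them lay 1 lost interval without a box (189 to 98.9 reads) and 2 gained ones, of which one rose from 9.23 to 33.9 reads and the other from 40.1 to 92. The second of these stood between lost intervals, and the first lay nearer to the gene than any of them.

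Itga4 had 3 such intervals, all upstream. Besides the one shown above, one 48891 bp away went from 85.2 to 42.5 reads (-1.0) and one 27205 bp away from 215 to 131 (-0.71). The other 3 intervals listed for Itga4 had no box and were also lost, 2 of them inside the gene, from 34.6 to 10.1 reads (-1.78) and from 32.9 to 8.49 reads (-1.95). All 6 intervals listed for this integrin gene were thus lower in MCD.

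The Sgcz intervals stood close together in an intron, 762952 to 781109 bp from its TSS. The 3 with a PU box went from 169 to 55.6 reads (-1.61), from 68.5 to 19.1 (-1.84) and from 89.4 to 19.3 (-2.21). Between and beside them were 4 lost intervals without a box, with differences from -2.11 to -1.34. The 7 intervals lay within 21559 bp, from the start of the first to the start of the last, and no gained interval was nearest to this gene.

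Pip4k2a, which encodes a phosphoinositide kinase, had 4 intervals with a box. They went from 34.1 to 10.2 reads (-1.73), from 69 to 33.2 (-1.05), from 142 to 73 (-0.96) and from 196 to 128 (-0.62), and an intronic gained interval stood among them. St6gal1, which adds sialic acid to glycoproteins, had 3 in introns, with 201, 115 and 65.2 reads in control and 115, 51.1 and 21.4 in MCD. Fnip2 also had 3, with differences of -1.34, -1.56 and -1.29, and so had Ubac2, with -0.60, -0.65 and -2.12. St6gal1, Fnip2 and Ubac2 had no other listed interval.

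Gene lists of macrophage function were read against all genes. A distal lost PU box interval was nearest to 26 of 343 listed genes (7.58%) and to 405 of all 22384 genes with an Entrez transcript (1.81%). Listed genes also had more intervals of any kind: 128 of the 343 (37.3%) had at least 1, against 11.5% of all genes. Among genes with any interval, 20.3% of listed genes and 15.7% of all genes had one of the 451. By list the counts were 6 of 55 myeloid transcription factors, 4 of 40 growth factor, cytokine and chemokine receptors, and 4 of 57 pattern recognition, Fc and scavenger receptors. They were 1 of 32 integrins and adhesion molecules, 6 of 61 genes of intracellular immune signalling, 2 of 50 of the phagocyte oxidase and lysosome, and 3 of 50 of lipid and cholesterol handling. Every list had a larger share of genes with any interval than the 11.5% of all genes. Among genes with any interval, the share by list was above 15.7% for transcription factors (26.1%), both receptor lists and intracellular signalling (19.4%). It was below 15.7% for integrins and adhesion molecules, phagocyte oxidase and lysosome (14.3%), and lipid and cholesterol handling. These shares rest on small counts.

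**Figure D5:**
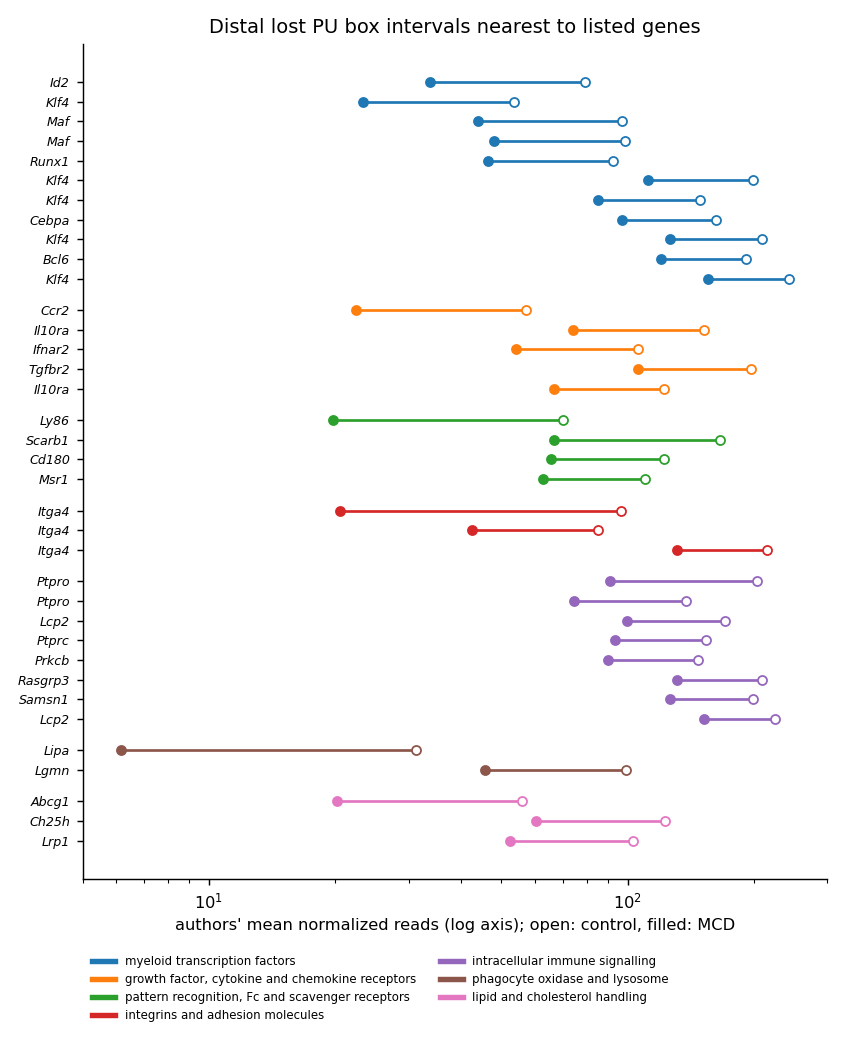
The 36 distal lost PU box intervals nearest to a listed gene, 1 line each, with the authors' mean of normalized reads in control (open circle) and in MCD (filled circle) on a logarithmic axis. Colours mark the gene list. Lipa lies lowest, at 31.2 and 6.17 reads, and Klf4 holds the highest control value, 243 reads.

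The transcription factors were Klf4, Maf, Id2, Cebpa, Bcl6 and Runx1. Maf, a bZIP factor of differentiated macrophages, had a pair of intervals within 2201 bp, 92675 and 94675 bp downstream of its TSS, with 98.5 and 96.9 reads in control and 48 and 44 in MCD (-1.04 and -1.14). Id2, which holds back basic helix-loop-helix factors, had 79.3 and 33.7 reads (-1.24). Cebpa, the C/EBPα gene, had 163 and 96.8 reads (-0.75) at an interval 20226 bp upstream, and a gained interval on its other side. The interval of Bcl6, a repressor, went from 192 to 120.2 reads (-0.68). Runx1 had 1 interval with 92.2 and 46.4 reads (-0.99), 207996 bp upstream, and 8 gained intervals. Maf, Cebpa and Runx1 thus had intervals in both directions, whereas Id2 and Bcl6 had lost ones alone.

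Among receptors, Il10ra, a chain of the interleukin-10 receptor, had a pair 3131 and 11822 bp upstream. They had 122 and 152 reads in control and 66.6 and 73.9 in MCD (-0.87 and -1.04), and a lost interval without a box lay between them (114 to 47.7 reads, -1.26). Ccr2, the receptor for the chemokine CCL2, had 57.3 and 22.5 reads (-1.35) at an interval 11142 bp upstream. An intronic interval of Ifnar2, a chain of the type I interferon receptor, had 106 and 54.1 reads (-0.97). Tgfbr2, whose interval is given above, also had a gained one (21.8 to 76.3 reads, 1.81). The Ccr2 interval was the least open of these in control and fell the most.

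Ly86 and Cd180, whose proteins form 1 receptor complex related to TLR4, each had an interval upstream. That of Ly86 had 70.1 and 19.8 reads (-1.83) and that of Cd180 had 122 and 65.6 (-0.90). The Cd180 interval was 59.7% repeat-masked, and a gained interval of that gene went from 11.4 to 43.6 reads (1.94). Intronic intervals of the scavenger receptor genes Scarb1 and Msr1 had 166 and 66.9 reads (-1.31) and 109.8 and 62.8 reads (-0.81).

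In intracellular signalling, Ptpro, a receptor-type tyrosine phosphatase, had a pair within 2015 bp beyond its 3′ end, each with 2 boxes (204 to 90.7 reads, -1.17, and 138 to 74.6 reads, -0.89). Lcp2, the adaptor SLP-76, had one in an intron (171 to 99.7 reads, -0.78) and one 15290 bp upstream (225 to 152 reads, -0.57), the latter with a box that matched all 6 flanking letters. Rasgrp3 (209 to 131 reads), Samsn1 (199 to 126), Prkcb (147 to 89.6) and Ptprc (154 to 93.1) had 1 each, with differences from -0.73 to -0.66. Ptprc, which encodes CD45, had 6 gained intervals beside it, and Lcp2 (7.61 to 30.7 reads, 2.01) and Prkcb (9.36 to 36.2 reads, 1.95) had 1 each. The signalling genes were thus mostly at well-open intervals with smaller falls.

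The lysosome and lipid genes were few. Lgmn, a lysosomal protease, had 99.4 and 45.6 reads (-1.13) at an interval 3865 bp upstream. Ch25h, which makes 25-hydroxycholesterol and neighbours Lipa on chromosome 19, had 123 and 60.6 reads (-1.02) at an interval 84922 bp from its TSS. Abcg1, an exporter of cholesterol, had an intronic interval with 56.1 and 20.2 reads (-1.47), beside a lost one without a box (156 to 54.8 reads, -1.51). Lrp1, an endocytic receptor for lipoproteins, had an exonic interval with 103 and 52.3 reads (-0.98). A gene is named here for the nearest TSS alone, and no measure of which gene an interval acts on was used.

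Of the 405 genes, 99 also had a gained interval (24.4%). Among the 428 genes with a lost interval but none of the 451, 84 did (19.6%). Of all 22384 genes with an Entrez transcript, 1932 had a gained interval and 2582 had an interval of any kind.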

How the data were processed

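ATAC-seq was made from 4 samples, 2 control and 2 MCD. According to the paper's methods and the submitters' processing notes, adapters were cut with cutadapt 2.6, reads were aligned to mm10 (GRCm38) with Bowtie2 2.4.4, duplicates were removed with Picard, peaks were called with MACS (MACS3 3.0.0 in the notes, MACS2 in the paper), and conditions were compared in DiffBind under R 4.0.2. The normalization, the Tn5 offset and whether samples were pooled for peak calling are not given in the sources used here. The labels write the digits of the cell line's name in another order.

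The authors deposited, for each condition, 1 mean of normalized reads as a log2 value. These were turned to reads as powers of 2, and differences are MCD minus control. The authors' p-value and FDR columns and their fold column hold comparisons of the deposited study. The FDR (a p-value adjusted over intervals) was read only to find that no row exceeds 0.050. Since no value per sample was at hand, the test planned on samples was not run, the depth each sample reached and the precision it gives are unknown (the paper states the planned depth), and no p-value is given.

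TSS, exons and introns came from GENCODE M21 (transcripts with an Entrez identifier, the comprehensive set), sequence from GRCm38. Distances run from the interval's edge. A total of 20 motifs and 7 lists of 343 genes were searched. The intervals and lists were chosen with earlier results of these data known. Intervals named are the 10 largest falls, the 5 highest control means, those at listed genes, with 3 or more boxes, at genes with 3 or more, at the limits of the rules, or with a longer box or composite (examples). Motif counting was tested on simulated sequences. Calculations ran in Python 3.11.15 with pandas 2.3.3, numpy 2.4.6, scipy 1.17.1 and matplotlib 3.10.9. Other box lengths, windows, distances and thresholds were tried as alternatives. Most intervals with 3 boxes or a composite are given as counts and ranges, and a few items are not reported here.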

Additional observations from a re-analysis of the deposited data

How the results depend on the processing

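Over 11 settings, 3 of them chosen after the data were seen (TSS of basic transcripts, no interval more than 50% repeat-masked, no chromosome X), 66 values were recomputed. Of these, 49 stayed close, which for the number of intervals means within 1.5 times, and for medians and shares within the 95% interval of the value reported. That 95% interval counts each stretch of chromatin as 1 unit, although all share the same libraries, so it is only a yardstick of closeness. Some settings kept nearly the same set, such as 448 intervals without chromosome X. The other 17 values are given here. With GAGGAAG as the box there were 288 intervals with a median difference of -0.92, a median of 123 reads in control, and 45.7% of distal intervals with the box lost. With GAGGAAGTG there were 60, with -0.85, 135 reads and 49.6%, and 38.3% had the box within 25 bp of the middle. Requiring a difference of at least 1 gave 208, with -1.23 and 76.2 reads, and lowered the share lost to 29.2%. Requiring 50 reads in the higher condition raised that share to 45.7%. Searching only the middle of each interval, within 50 bp on either side, gave 274, of which 54.4% had the box within 25 bp, as the window requires, and a share lost of 44.1%. The causes of the other shifts were not tested. The TSS set changed the number to 491 (basic transcripts) or 414 (all transcripts), and a limit of 1 or 10 kb to 492 or 339, with median differences from -0.99 to -0.97.

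No paired analysis was possible because the table holds condition means and not samples. For the same reason, leaving out a sample, another normalization and DESeq2 were not run. The depth per sample, not in the table, and unlisted unchanged intervals limit every share above.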
